A study of Mus musculus with 24 samples.

Results

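The afferent nerve fibres (AN) that form dorsal roots were compared with the efferent nerve fibres (EN) that form ventral roots in C57BL/6 mice at 5 W of age. The comparison used the 6 arrays labelled with that age, 3 of AN and 3 of EN, out of 24 arrays that also cover P0, 1 W and 3 W. Each array was an Agilent mouse 8 × 60K expression array hybridized with Cyanine-3 labelled RNA of 1 sample. The roots belonged to segments L4 to L6, the labels name no treatment or transgene, and the study used both sexes. The labels give L4–L6 spinal cord segments as the tissue and name the nerve fibres as its subtype, while the methods describe roots dissected off the cord after the arachnoid was peeled away. Animals of a time point were pooled by root, and the methods name 3 independent experiments per group without tying an animal to an array. The p-values therefore measure a spread between samples. This spread is that of the differences between AN and EN arrays of the same number, shared over all ages and 24 arrays. It is not the spread of the 6 arrays alone. A probe entered the comparison if it was well above background on all 3 arrays of AN or of EN. Of 56605 gene probes, 33279 did, and they carried 22002 of the 37074 gene names on the array. Each gene is given by the brightest of its tested probes, taking the mean of the 6 arrays.

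A spinal root is a cable of axons whose cell bodies lie elsewhere. Dorsal root axons belong to sensory neurons of the dorsal root ganglion (DRG) and enter the dorsal horn, whereas ventral root axons belong to motor neurons of the ventral horn and, at some levels, to autonomic neurons. Most RNA of a root therefore comes from Schwann cells, fibroblasts, vessels and immune cells, to which axonal RNA and any ganglion or cord tissue at the ends of the root add. In such bulk samples, fewer cells of a type and less RNA per cell cannot be told apart.

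Past 2-fold, more genes were higher than lower in AN. A log2 fold change is AN minus EN, and a gene was called at a Benjamini-Hochberg adjusted p below 0.05 in limma with a fold change above 2. By this rule, 720 gene names (3.27%) were higher in AN and 286 (1.3%) were lower. At adjusted p below 0.05 and any fold the balance was the other way, with 2557 gene names (11.6%) higher and 3118 (14.2%) lower. The AN and EN arrays did not overlap for 2242 gene names higher in AN (10.2%) and for 2511 lower in AN (11.4%). Differences above 2 log2 units were found for 291 gene names higher and 21 lower. The median log2 fold change of all gene names was −0.03.

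In probes, 1042 (3.13%) were higher in AN and 398 (1.2%) lower, and 72.4% of the called probes were higher. At the methods' thresholds, read as an unadjusted p below 0.05 with the same fold, 1277 (3.84%) were higher and 469 (1.41%) lower. Without the replicate 2 arrays, 604 probes were higher. The number was 590 after background correction by normexp, and 390 when the 6 arrays were fitted alone with the replicate pairs as a block. With that fit 57.5% of the called probes were higher in AN, and without the block the 6 arrays gave 70 higher and 29 lower probes. A total of 217 probes were well above background on all AN arrays and on no EN array, and 4 the other way round. Signal over background was lowest in replicate 3, whose arrays had a median signal of 45.4 (AN) and 48.2 (EN), against 88.9 to 171 on the other arrays, over a local background of 24 to 44. Each AN array shared its slide and scan day with the EN array of the same number, so that a difference within a pair is also a difference within a slide.

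**Figure D1:**
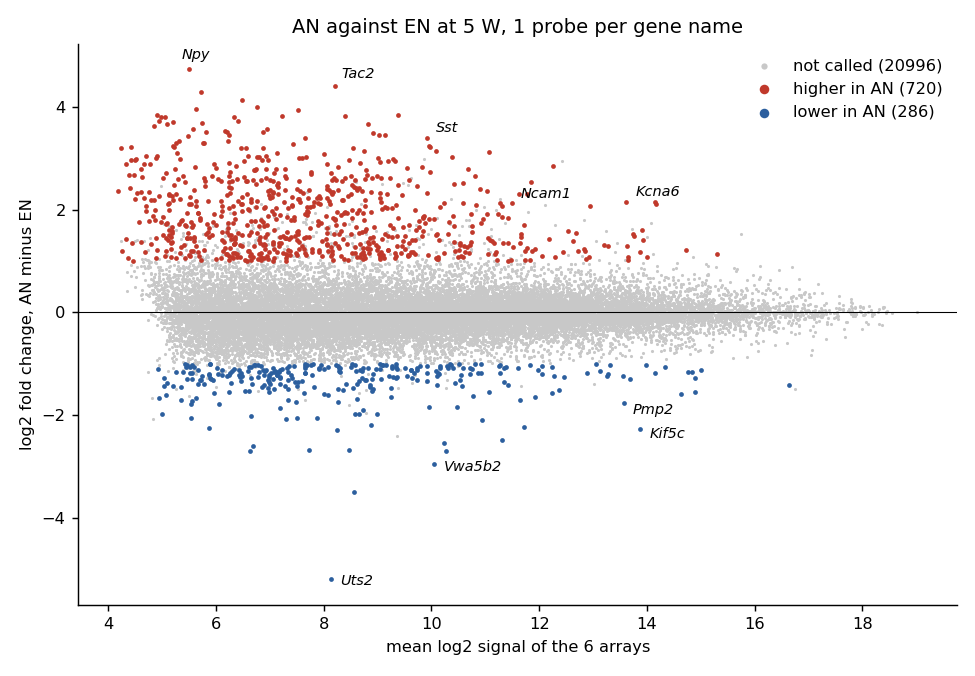
Each point is 1 gene name, with the mean log2 signal of the 6 arrays on the horizontal axis and the log2 fold change (AN minus EN) at 5 W on the vertical axis. More than 2 log2 units from 0 lie 291 of the 720 gene names higher in AN (red) and 21 of the 286 lower ones (blue), of which Uts2 lies lowest at −5.20. For 92 red points no EN array was above background, so that their height is not a measured fold. Nor is the −5.20 of Uts2, which on AN replicate 2 lay below the lowest signal well above background.

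The labels were checked against defining markers. Of 8 markers of DRG sensory neurons, 7 were tested, and Tac1 and Slc17a6 were higher in AN. Of 6 motor neuron markers 3 were tested, and Slc5a7, Isl1 and Mnx1 were too dim. Uts2 was lower in AN, Slc18a3 did not pass, and Chat was higher in AN, at less than 2-fold. All 6 Schwann cell markers were tested and none was called.

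The largest rises in AN included genes of neuropeptides, granins and calcium-binding proteins. Tac2, which encodes neurokinin B (probe at mm9 chr10:127168740-127168799), had log2 signals of 10.12, 12.77 and 8.33 in AN and 5.85, 6.67 and 5.47 in EN. Every AN array was above every EN array, and the fold change was 4.41 (standard error 0.52, adjusted p = 0.000525). Scg2, a granin of dense-core vesicles, measured 11.59, 12.78 and 9.51 in AN against 6.81, 7.56 and 7.97 in EN (3.85, standard error 0.66, adjusted p = 0.00309). Sst, which encodes somatostatin, measured 11.32, 13.52 and 10.02 against 8.12, 8.78 and 7.78 (3.39, standard error 0.52, adjusted p = 0.00173). In these 3 genes AN replicate 2 was the highest array and AN replicate 3 the lowest AN array. The same order held for Hpcal4, a neuronal calcium sensor (10.58, 12.16 and 9.27 in AN, 7.23, 7.42 and 6.90 in EN, difference 3.49, adjusted p = 0.000312). It also held for Gpr17, a receptor known from the oligodendrocyte lineage (10.62, 11.11 and 9.17 in AN, 6.82, 6.59 and 6.04 in EN, difference 3.82, adjusted p = 0.000632). Camkv (3.45), Vstm2l (3.44), Ecel1 (3.40), Disp2 (3.27), Tmem130 (3.23) and Ly6h (3.22) followed. A second, dimmer probe of Ecel1 did not pass (−0.73).

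Sytl3 stood out among the 12 largest rises by how little its arrays varied. This synaptotagmin-like protein, an effector of Rab27 (probe at mm9 chr17:6942330-6942389), measured 10.60, 10.71 and 10.63 in AN and 6.97, 7.01 and 6.99 in EN. Its difference was 3.66 (standard error 0.27, adjusted p = 4.1e-05), and 3 of its 4 tested probes were called.

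For 92 called gene names no EN array was above background, so that the fold change is known as a minimum. This bound sets the AN mean against the mean, over the EN arrays, of the detection limit or the own signal of the probe, whichever was higher. These genes entered the comparison through AN alone. Their calls, here and below, rest on EN signals that were not above background and are no further support. The largest bounds were at least 11.4-fold for Calb1 (calbindin), at least 10.01-fold for Serpinb1b, at least 7.39-fold for the acid-sensing channel Asic1, at least 7.06-fold for the cannabinoid receptor Cnr1, at least 7.03-fold for Npy and at least 7.01-fold for Entpd3, an ectonucleotidase. Npy, which encodes neuropeptide Y, measured 7.83, 9.21 and 6.53 in AN and 3.19, 3.53 and 2.67 in EN. The lowest signals well above background on these EN arrays were 4.18, 5.62 and 5.33. Entpd3 was not called without replicate 1 or without replicate 2. No gene name lower in AN had a bound of this kind, and the detection limit was higher on the EN array of each pair.

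The falls in AN were fewer, and their pair differences spread less, with a median range of 0.58 log2 units against 1.51 for the rises. Uts2, which encodes urotensin 2 and is known from spinal motor neurons (probe at mm9 chr4:150375854-150375913), measured 6.23, 3.53 and 6.88 in AN and 10.69, 10.50 and 11.04 in EN. Its difference of −5.20 (standard error 0.64, adjusted p = 0.000646) was the lowest of all gene names, and it was above background on 2 AN arrays. On AN replicate 2 Uts2 lay below the lowest signal well above background (4.55), so that −5.20 is not a measured fold. Vwa5b2 (probe at mm9 chr16:20605372-20605431) measured 8.81, 8.60 and 8.35 in AN and 11.45, 11.53 and 11.61 in EN, a difference of −2.94 (standard error 0.17, adjusted p = 1.13e-05). Fgl2, a fibrinogen-like protein, measured 9.01, 9.58 and 8.28 against 11.47, 12.10 and 10.93 (−2.54, standard error 0.11, adjusted p = 2.05e-06). The pair differences of Fgl2 were −2.46, −2.52 and −2.65.

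Rph3a, an effector of Rab3 on synaptic vesicles, was among the falls with 7.49, 7.70 and 6.18 in AN and 9.57, 10.07 and 9.78 in EN (−2.68, adjusted p = 0.00187). Copg2os2, an RNA named for its position opposite Copg2, fell by 2.69 on the log2 scale (adjusted p = 2.13e-05), while its second probe fell by 0.97, less than 2-fold. The remaining falls among the 12 largest were Cyp2j13 (−2.49), Kif5c (−2.28), Lect1 (chondromodulin, −2.24), Gng13 (−2.18), Krt23 (−2.07), Tmprss7 (−1.98), Crygs (−1.87) and Fabp4 (−1.85). Fabp4, a fatty acid-binding protein of adipocytes and vessels, was not called once any 1 of the 3 replicates was left out. Mcf2 (−2.70) was above background on 2 AN arrays.

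**Figure D2:**
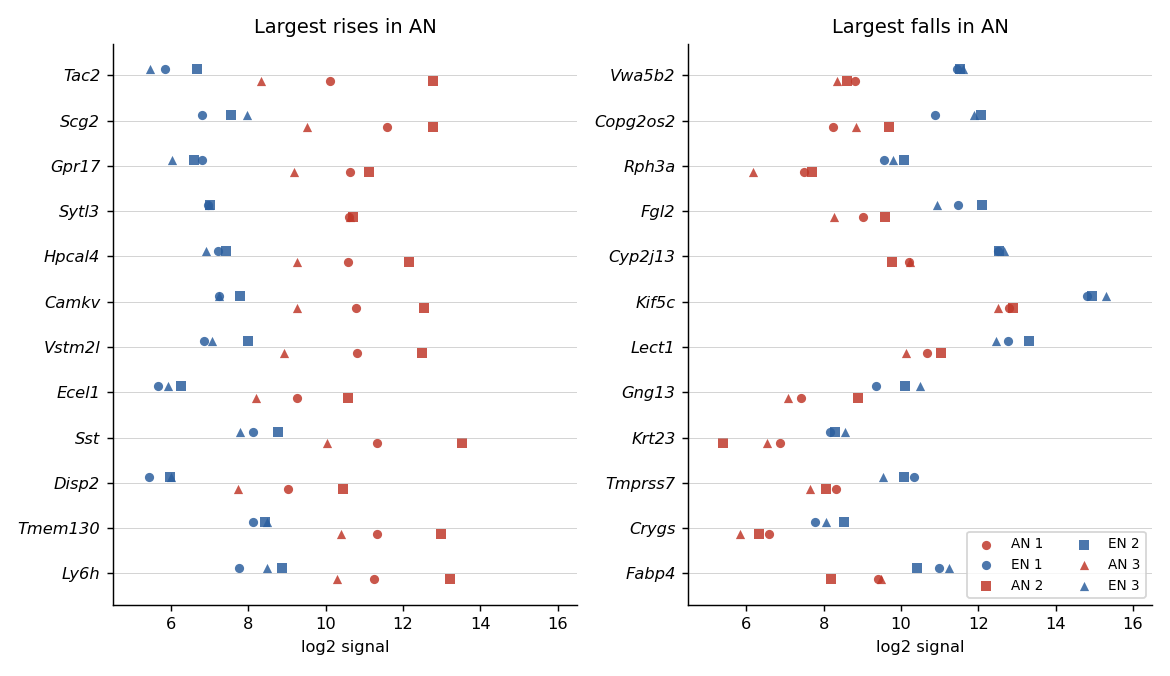
Log2 signals on the 6 arrays at 5 W of the 12 genes with the largest rise in AN and of the 12 with the largest fall among called genes above background on all 6 arrays, with AN in red, EN in blue and a marker shape for each replicate number. The 3 AN points of Sytl3 lie between 10.60 and 10.71, whereas those of Tac2 run from 8.33 to 12.77.

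Promoters are shown for genes that moved together, since several granin and peptide genes are textbook targets of factors that bind the cAMP response element (CRE), and since RE1 is the site of a repressor of neuronal genes. The 250 bases before the start site were searched in RefSeq sequence of GRCm38.p6 on both strands, for the CRE letters TGACGTCA and for the RE1 core, CAGCACC and GGACAG with any 2 bases between, which does not overlap the CRE. Promoters were found for 441 of the gene names higher in AN and for 163 of those lower. The CRE letters were in 13 (2.95%) and in 2 (1.23%) of these, against 2.76% of the 12443 tested gene names with a promoter and 1.77% of all 27025 promoters in the table. The RE1 core was in 3 of the higher gene names (0.68%), in none of the lower and in 10 of all 27025 (0.037%). Capitals mark the match. Scg2, Sst and Chgb are the 3 genes higher in AN by over 3 log2 units that hold the CRE letters, Kif5c holds them among the falls, and Fam163b and Hrh3 hold the RE1 core, Hrh3 on the opposite strand.
Scg2 (chr1:79440027-79440276, minus strand): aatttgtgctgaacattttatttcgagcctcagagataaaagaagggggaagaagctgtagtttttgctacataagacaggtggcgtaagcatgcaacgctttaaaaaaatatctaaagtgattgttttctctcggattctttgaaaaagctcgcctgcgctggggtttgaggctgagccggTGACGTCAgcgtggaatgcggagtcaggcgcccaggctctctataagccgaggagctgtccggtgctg
Sst (chr16:23890845-23891094, minus strand): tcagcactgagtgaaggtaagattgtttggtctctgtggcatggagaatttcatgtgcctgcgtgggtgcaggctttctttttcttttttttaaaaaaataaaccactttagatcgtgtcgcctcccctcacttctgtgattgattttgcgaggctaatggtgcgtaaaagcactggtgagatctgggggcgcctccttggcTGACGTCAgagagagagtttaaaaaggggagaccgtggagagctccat
Chgb (chr2:132781392-132781641, plus strand): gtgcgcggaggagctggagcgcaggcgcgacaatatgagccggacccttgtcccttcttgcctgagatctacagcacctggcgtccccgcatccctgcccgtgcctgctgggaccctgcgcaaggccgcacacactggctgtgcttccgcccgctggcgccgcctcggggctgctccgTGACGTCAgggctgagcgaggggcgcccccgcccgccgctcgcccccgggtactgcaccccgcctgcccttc
Kif5c (chr2:49619036-49619285, plus strand): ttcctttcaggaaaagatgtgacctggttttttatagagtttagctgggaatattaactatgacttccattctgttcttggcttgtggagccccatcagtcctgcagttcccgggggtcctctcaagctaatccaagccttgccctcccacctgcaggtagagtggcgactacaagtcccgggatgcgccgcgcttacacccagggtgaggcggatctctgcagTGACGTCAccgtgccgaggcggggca
Fam163b (chr2:27142478-27142727, minus strand): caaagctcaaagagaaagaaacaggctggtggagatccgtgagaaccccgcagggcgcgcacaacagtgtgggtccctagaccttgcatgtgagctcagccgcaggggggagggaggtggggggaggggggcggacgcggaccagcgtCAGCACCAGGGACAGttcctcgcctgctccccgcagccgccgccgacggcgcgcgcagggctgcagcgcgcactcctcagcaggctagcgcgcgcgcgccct
Hrh3 (chr2:180104408-180104657, minus strand): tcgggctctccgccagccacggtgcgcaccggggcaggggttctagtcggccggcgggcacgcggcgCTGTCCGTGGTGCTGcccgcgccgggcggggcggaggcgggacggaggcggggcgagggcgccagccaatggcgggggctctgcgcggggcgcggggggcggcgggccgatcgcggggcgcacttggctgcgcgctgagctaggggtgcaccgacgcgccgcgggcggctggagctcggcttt
The match starts 68 bases before the start site in Scg2, 48 in Sst, 72 in Chgb, 26 in Kif5c, 102 in Fam163b and 183 in Hrh3. A match is a run of letters and not a measured binding site.

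Chgb, the granin chromogranin B, measured 11.59, 13.25 and 10.12 in AN and 8.36, 8.55 and 8.63 in EN (3.14, adjusted p = 0.00321). Fam163b was higher by 2.20, 4.43 and 1.69 log2 units in the 3 pairs (mean 2.77, adjusted p = 0.00292). Hrh3, the histamine H3 receptor, was higher by 2.51, 3.52 and 1.09 (mean 2.37, adjusted p = 0.00132).

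Sensory neuropeptides, which DRG neurons and dorsal horn neurons release, were among the rises. Of 13 members tested, 7 were higher in AN and none lower, with a median log2 fold change of 1.69 against −0.03 for all gene names. Besides Tac2, Npy and Sst these were Adcyap1 (PACAP, 3.80), Tac1 (3.20), Grp (1.70) and Cck (1.62). Tac1, the gene of substance P, measured 11.20, 11.35 and 7.90 in AN and 6.41, 7.27 and 7.16 in EN (standard error 0.89, adjusted p = 0.0264). AN replicate 3 lay close to the EN arrays and far below the other AN arrays. Calca, the gene of CGRP and the best known peptide of nociceptors, measured 13.66, 12.33 and 8.64 in AN and 9.21, 9.94 and 10.41 in EN. Here AN replicate 3 lay below all EN arrays, and the difference of 1.69 (standard error 1.14) did not pass (adjusted p = 0.296). Without replicate 2, 4 of the 7 stayed called, the exceptions being Tac1, Grp and Cck, and without replicate 3 the list had 8 called members.

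Nociceptor channels and receptors had 2 of 14 tested members higher in AN, Asic1 and Asic2 (1.95), and none lower, with a median of 0.51. Scn10a, a sodium channel of pain fibres, measured 10.72, 9.13 and 5.79 in AN and 7.27, 6.32 and 7.58 in EN (1.49, adjusted p = 0.312). Scn11a (1.29, adjusted p = 0.303) and the sensory neuron actin-binding protein Avil (1.58, adjusted p = 0.229) followed the same order of AN arrays, with replicate 1 highest and replicate 3 at or below EN. Asic2 was not called without replicate 1 or without replicate 2.

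Slc17a6, the vesicular glutamate transporter VGLUT2, measured 8.57, 9.85 and 6.56 in AN and 4.93, 5.68 and 5.51 in EN (2.96, adjusted p = 0.00587). Among 13 proprioceptor and mechanoreceptor genes, 3 were higher in AN (Calb1, Vsnl1 by 3.00 and Necab2 by 1.14), none was lower, and the median was 0.01. Receptors for neurotrophic factors had 2 of 8 members higher, the GDNF family coreceptors Gfra2 (1.19) and Gfra3 (1.55). Gfra2 measured 12.49, 12.03 and 12.44 in AN and 11.19, 10.88 and 11.34 in EN (standard error 0.11, adjusted p = 0.000155). For Ntrk2, the receptor of BDNF, the brighter probe differed by 0.64, less than 2-fold. At the other probe no EN array was above background and AN was at least 5.87-fold higher. None of 5 tested transcription factors of sensory neurons was called, and their median was −0.11. Without replicate 2, Slc17a6, Vsnl1 and Necab2 were not called. Necab2 was not called without replicate 1 either, and Gfra3 was not called without replicate 1 or without replicate 3, which left 1 of the 8 receptors.

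Some markers of spinal cord cells were also higher in AN. Of 11 tested markers of spinal interneurons, 5 were higher in AN, with a median of 0.74. Pdyn (prodynorphin) measured 9.52, 10.58 and 8.38 in AN and 5.29, 5.77 and 5.62 in EN (3.93, adjusted p = 0.000475). Gad2, which makes GABA, measured 6.83, 9.28 and 6.59 in AN and was above background on no EN array, so that AN was at least 5.75-fold higher. The glycine transporter Slc6a5 (at least 2.54-fold higher), the vesicular transporter Slc32a1 (2.95) and the glycine receptor subunit Glra1 (1.65) were the other members called. The summed linear signal of the list was 6408 to 17249 in AN and 4160 to 4793 in EN, and Tfap2b was too dim to be tested. For Gad1, the brighter probe differed by −0.23 and the other by 2.78 (adjusted p = 0.00404).

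Astrocyte markers had 6 of 12 tested members higher in AN (median 1.18). Aqp4, the water channel of astrocyte endfeet, measured 10.90, 10.90 and 9.80 in AN and 8.26, 7.79 and 7.69 in EN (2.62, adjusted p = 0.00674), and the glutamate transporter Slc1a2 was higher by 2.24. The others were Ntsr2 (2.99), Agt (1.92), Fgfr3 (1.83) and Slc4a4 (1.41), while Slc1a3 (−0.13) was not called. Summed signals were 62966 to 124460 in AN and 46550 to 60938 in EN. Without replicate 2, 3 astrocyte and 3 interneuron markers were called. The part of spinal cord tissue in the neuronal and synaptic results was not tested.

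Oligodendrocyte markers had 6 of 12 tested members higher (median 1.17): the transcription factor Olig1 (2.88), the protease Klk6 (2.62), the receptor Gpr37 (2.22), Ermn (2.15), Hapln2 (1.33) and Cldn11 (1.02). Gpr37 measured 8.83, 9.12 and 9.01 in AN and 6.88, 6.59 and 6.83 in EN (standard error 0.11, adjusted p = 5.67e-06). Ermn, a cytoskeletal protein of oligodendrocytes, measured 14.92, 15.86 and 14.92 in AN and 14.23, 15.14 and 9.88 in EN, and its value fell from 2.15 to 0.70 without replicate 3, when it was not called. The myelin gene Mog differed by 0.14 at its brighter probe and by 1.59 (adjusted p = 0.0119) at the other, and Opalin and Olig2 were too dim to be tested. Cldn11 was not called without replicate 3, Olig1 without replicate 2, and Hapln2 without replicate 1 or without replicate 2, so that 4 of the 12 were called without replicate 2 and 4 without replicate 3. Summed signals were 48044 to 87958 in AN and 13473 to 53319 in EN. Satellite glia markers had 3 of 7 members higher, of which Fabp7, a fatty acid-binding protein of glia, measured 12.18, 10.45 and 9.99 in AN and 9.02, 7.96 and 7.94 in EN (2.57, adjusted p = 0.00393). Without replicate 1, 2 of the 7 were called, and without replicate 2, 1 was.

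Several synaptic genes were higher in AN as well. Of 12 neurexins, neuroligins and partners, which join the sides of a synapse, 9 were higher and none lower, with a median of 1.61. Among the neurexins, Nrxn3 was higher by 1.69 and Nrxn2 by 1.30. The cerebellins Cbln2 (at least 3.82-fold higher) and Cbln1 (2.59) bind neurexins, and Nlgn1 was higher by 1.98. Lrrtm1, a postsynaptic partner of neurexins, was even across the pairs, with 9.75, 8.57 and 8.61 in AN and 7.46, 6.48 and 6.66 in EN (2.11, standard error 0.09, adjusted p = 2.05e-06). Lrrtm3 (1.52) and Lrrtm4 (1.22) were also called, and Nlgn3 (−0.10) was not. Without replicate 1, 6 of the 12 were called, and without replicate 2, 5 were. Nrxn2 and Nrxn3 were not among them in either case.

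Of 22 genes of synaptic vesicles and SNARE proteins, 6 were higher and none lower (median 0.73). They included Rab3c (3.09), Syn2 (2.92), Sv2a (2.79), Syt1 (2.78) and Unc13c (1.31). Syt1, the calcium sensor of transmitter release, measured 10.18, 11.82 and 8.54 in AN and 7.27, 7.47 and 7.47 in EN (adjusted p = 0.00769). Unc13c, a vesicle priming factor, measured 7.53, 9.83 and 8.79 in AN and 6.53, 8.12 and 7.58 in EN (adjusted p = 0.0013). The AN array was the higher one in each pair although the groups overlapped. Snap25 differed by 0.71 at its brighter probe (adjusted p = 0.0667), while at the other no EN array was above background and AN was at least 2.82-fold higher. Without replicate 2, 3 of the 22 were called.

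GABAA receptor subunits, which form the chloride channels opened by GABA, had 4 of 12 members higher and none lower (median 0.38). Gabrb1, Gabrg1 and Gabrq were above background on no EN array, and AN was higher by at least 5.85-fold, at least 4.06-fold and at least 1.66-fold. Gabra3 measured 9.42, 10.62 and 9.96 in AN and 7.90, 9.01 and 8.67 in EN (1.47, standard error 0.22, adjusted p = 0.00158). The count depended on the probe: with any tested probe called, 8 of the 12 were higher. Gabra2 (1.03, adjusted p = 0.1), Gabra4 (0.26), Gabra5 (0.06) and Gabrg3 (0.10) did not pass at the brightest probe, while 3 of 4 probes of Gabra2 and the second probes of Gabra5 (1.80), Gabra4 (at least 1.93-fold) and Gabrg3 (at least 3.58-fold) did. Ionotropic glutamate receptors had 6 of 16 members higher (median 0.95). The kainate subunit Grik3 measured 8.91, 8.41 and 8.90 in AN and 4.46, 5.32 and 5.75 in EN (3.57, standard error 0.29, adjusted p = 8.19e-05). On EN replicate 2 Grik3 lay below the lowest signal well above background (5.62). The others were Grin3a (3.20), Gria4 (2.15), Grin2c (1.52), Gria2 (1.40) and Grin1 (1.30). Without replicate 2, 2 GABAA and 4 glutamate receptor subunits were called.

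Of 23 potassium channel genes, 5 were higher in AN and none lower (median 0.56). Kcna6, a voltage-gated channel, was bright and even, with 14.55, 14.67 and 14.86 in AN and 12.35, 12.39 and 12.87 in EN (2.15, standard error 0.08, adjusted p = 2.05e-06). Kcnj10, the inward rectifier of glia, measured 13.14, 13.45 and 12.75 in AN and 10.44, 10.58 and 10.72 in EN (2.54, standard error 0.16, adjusted p = 1.91e-05). Kcnd2 (at least 5.93-fold higher) and Kcnc4 (2.10) had AN replicate 3 as the lowest AN array. The sodium channel list had 4 of 11 members higher, and of these Scn7a, which Schwann cells express, measured 8.91, 9.07 and 10.35 in AN and 6.53, 7.36 and 7.88 in EN (2.18, standard error 0.16, adjusted p = 4.5e-05). Scn1a (2.55) was not called without replicate 1 or without replicate 2, and Scn3a was higher by 1.72. Cacna2d3 (2.66) and Cacna2d2 (1.17) were the calcium channel subunits called among 13, and neither was called without replicate 2.

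**Figure D3:**
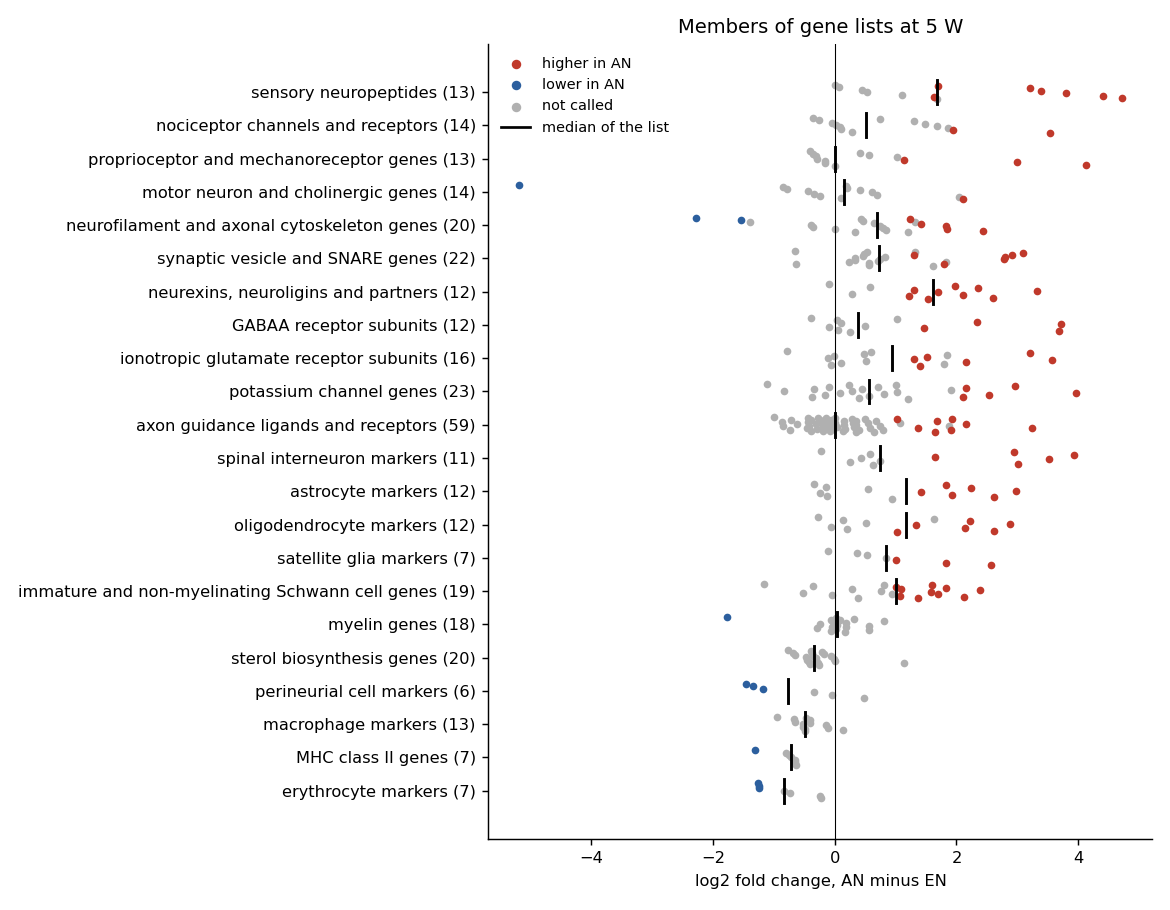
Log2 fold changes (AN minus EN) at 5 W of the tested members of gene lists, with 1 point per gene, the number tested in brackets and a black bar at the median of the list. Called members (red, blue) of neuropeptides, neurexins, synaptic lists and spinal cord cell markers lie above 0, the bulk of the myelin genes lies near 0, and MHC class II genes and erythrocyte markers lie below 0.

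Of 19 tested genes of immature and non-myelinating Schwann cells, 10 were higher in AN and none was called lower, with a median of 1.01. The lowest member differed by −1.17 and was not called. Ncam1, an adhesion protein of these cells (probe at mm9 chr9:49310320-49310379), measured 12.50, 12.49 and 12.67 in AN and 10.29, 10.24 and 10.78 in EN. Its difference was 2.12 (standard error 0.08, adjusted p = 2.05e-06), and all 5 probes were called. L1cam (1.70), Cadm1 (1.82) and Cdh2 (N-cadherin, 1.09) are adhesion proteins too. Cadm1 measured 11.49 to 12.10 in AN and 9.67 to 10.42 in EN (standard error 0.11, adjusted p = 9.95e-06).

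Among the transcription factors of this list, Sox2 measured 9.48, 9.34 and 9.87 in AN and 7.68, 7.90 and 8.36 in EN (1.58, adjusted p = 1.33e-05). Pou3f1 (Oct6) measured 14.06, 12.60 and 13.35 against 12.56, 11.18 and 11.50 (1.59, adjusted p = 0.000475), and the injury-induced factor Atf3 was higher by 1.08. Ednrb, an endothelin receptor, was higher by 1.37 (standard error 0.11), and Cadm2 by 1.01. Gfap, an intermediate filament of non-myelinating Schwann cells and of astrocytes, varied more, with 12.11, 13.18 and 10.99 in AN and 9.60, 10.31 and 9.19 in EN (2.39, standard error 0.58, adjusted p = 0.0145). In 7 of the 10 called members the 3 pair differences lay within 0.5 log2 units of each other, which held for 118 of all 720 gene names higher in AN. The summed signal of the list, carried by its brightest members, was 295210 to 333438 in AN and 333281 to 380630 in EN. Without replicate 2, Gfap, Atf3 and Cadm2 were not called, and Gfap and Atf3 were not called without replicate 1.

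Myelin genes did not follow. Of 18 tested, none was higher and 1 was lower, and the median was 0.03. The exception was Pmp2, a fatty acid-binding protein of peripheral myelin (probe at mm9 chr3:10182422-10182481), with 12.89, 12.53 and 12.62 in AN and 14.58, 14.51 and 14.28 in EN (−1.77, standard error 0.16, adjusted p = 0.000155). Mbp (0.04), Pmp22 (0.02), Prx (0.02) and Egr2 (0.18) were not called. Cnp (0.81, adjusted p = 0.00195) and Sox10 (0.56, adjusted p = 0.0263) passed the adjusted p at less than 2-fold. Of the 10 genes of neuregulin, ErbB and Lgi4 signalling, which drives Schwann cell survival and myelination, 2 were higher (median 0.61). Erbb3, the neuregulin receptor of Schwann cells, measured 13.86, 14.04 and 13.84 in AN and 12.49, 12.69 and 12.70 in EN (1.29, standard error 0.10, adjusted p = 4.6e-05), and Adam23, a receptor of Lgi proteins, was higher by 1.94. Lgi4 differed by 0.88 (adjusted p = 0.000464), less than 2-fold.

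Genes of the node of Ranvier and paranode had 4 of 14 members higher (median 0.48). They were the juxtaparanodal adhesion proteins Cntnap2 (3.02) and Cntn2 (2.02), the paranodal Cntn1 (2.65) and the scaffold Dlg2 (at least 2.11-fold higher). Cntn1 measured 12.12, 12.68 and 11.59 in AN and 9.26, 9.60 and 9.57 in EN (standard error 0.43, adjusted p = 0.00249). It was the only one of the 4 that stayed called without replicate 1 and without replicate 2. Gldn (−0.23) and Nfasc (0.17), which cluster sodium channels at the node, were not called.

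**Figure D4:**
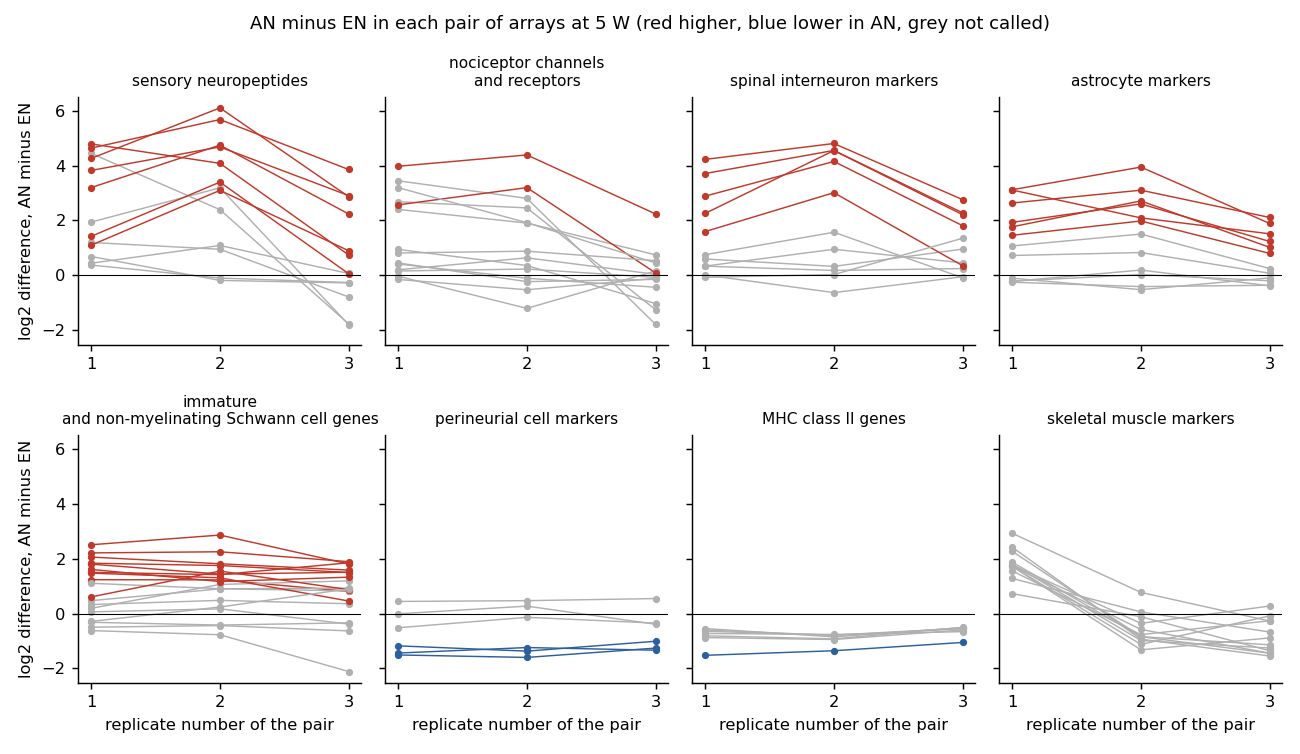
Log2 difference AN minus EN in each pair of arrays at 5 W, with the replicate number of the pair on the horizontal axis and lines joining the points of 1 gene across pairs, which have no order. Called members (red, blue) of the Schwann cell, perineurial and MHC class II lists run nearly level. The neuropeptides and the called interneuron markers are lowest in pair 3, and skeletal muscle markers are high in pair 1.

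The 3 pairs of arrays differed in how large the rises were. Over the 720 gene names higher in AN, the difference was largest in pair 2 for 486 and smallest in pair 3 for 501, and the 3 pair differences were over 2 log2 units apart for 241. The medians over the higher probes were 1.70, 2.29 and 1.24 in pairs 1, 2 and 3. All 5 called interneuron markers and all 7 called neuropeptides were smallest in pair 3. Over the 286 gene names lower in AN, pair differences were over 2 log2 units apart for 16 and within 0.5 for 115. Replicate 3, with the smallest differences, also had the dimmest arrays, and the part of signal strength in this order was not tested. Skeletal muscle markers, of which none of 12 was called, had median pair differences of 1.75, −0.81 and −1.02. Acta1, the actin of skeletal muscle, was highest in AN replicate 1 with 13.56, against 8.90 to 11.68 on the other arrays.

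Of 59 tested axon guidance ligands and receptors, 8 were higher in AN and none lower, and the median was 0.01. Several were as even across the pairs as Ncam1. Epha5, an Eph receptor, measured 8.43, 8.43 and 8.97 in AN and 6.63, 6.27 and 7.18 in EN (1.92, standard error 0.08, adjusted p = 2.14e-06, 4 of 4 probes called). The secreted semaphorin Sema3f measured 11.82, 11.36 and 11.91 in AN and 10.02, 9.38 and 9.93 in EN (1.92, standard error 0.11, adjusted p = 9.95e-06). Sema3e (2.15), Sema4d (1.69), Sema3c (1.38), Ephb2 (1.65) and Ntng1 (1.02) were also higher. Robo2, a receptor of Slit proteins, was above background on no EN array, with AN at least 3.44-fold higher, and was not called without replicate 2. Ntng1 was not called without replicate 1 or without replicate 3. The ligands Slit2 (−0.63, adjusted p = 0.00357) and Slit3 (−0.45, adjusted p = 0.0252) were lower at less than 2-fold, and Robo1 (−0.18) was not called.

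Of 29 Hox genes, which carry positional identity, 1 was called (Hoxb2, 1.24), and the median was 0.05. Hoxa10 measured 10.97, 11.37 and 10.74 in AN and 10.92, 11.15 and 11.04 in EN. Of 12 hedgehog pathway genes, Hhip, a binding protein that limits the ligand, was higher by 1.46 (standard error 0.09, adjusted p = 1.13e-05). The ligand Dhh (−0.36) and the target Gli1 (−0.72) passed the adjusted p at less than 2-fold. The melanocyte enzyme Tyrp1 was higher in AN by 4.00 (8.85, 7.98 and 9.48 in AN, 3.83, 4.94 and 5.54 in EN, adjusted p = 0.000508), the 1 of 5 melanocyte markers called. On EN replicates 1 and 2 Tyrp1 lay below the lowest signals well above background (4.18 and 5.62). Its 4.00 is therefore not a measured fold. The receptor Kit was higher by 1.41 (10.44, 10.30 and 10.47 against 8.97, 8.66 and 9.35, adjusted p = 0.000125), and the other 3 mast cell markers tested were not called.

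Motor and cholinergic genes had few calls. Of 14 tested, Uts2 was lower and Ache, the acetylcholinesterase gene, higher (AN at least 2.91-fold higher, not called without replicate 1 or without replicate 2). Chat, which makes acetylcholine, measured 8.54, 8.89 and 9.84 in AN and 7.63, 8.55 and 9.24 in EN, 0.61 higher in AN and less than 2-fold (adjusted p = 0.0451). Slc18a3, the vesicular acetylcholine transporter, differed by −0.78 (adjusted p = 0.202).

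Axonal cytoskeleton and transport genes moved both ways, with 5 of 20 higher and 2 lower (median 0.70). The lower ones were motor subunits of kinesin-1. Kif5c (probe at mm9 chr2:49630116-49630175) measured 12.80, 12.90 and 12.51 in AN and 14.81, 14.93 and 15.31 in EN (−2.28, standard error 0.33, adjusted p = 0.00128), so that the groups lay clearly apart. Kif5a measured 14.22, 14.66 and 13.47 against 15.11, 15.86 and 16.02 (−1.55, adjusted p = 0.0315) and was not called without replicate 2 or without replicate 3. The higher ones were the dynein subunit Dync1i1 (2.44), Gap43 (1.84), the microtubule-associated Map2 (1.83) and Mapt (1.42), and the filament protein Ina (1.24). Mapt, called at all 5 probes, measured 12.93, 12.97 and 12.81 in AN and 11.43, 11.25 and 11.77 in EN. Neurofilament light chain Nefl measured 14.80, 13.87 and 11.53 in AN and 12.47, 12.65 and 12.85 in EN, a spread within AN larger than its difference of 0.74. Nefm (0.85), Nefh (−1.39) and Prph (1.32) were not called either. Without replicate 2, Mapt was the 1 higher member that stayed called, and without replicate 1, Dync1i1 and Gap43 were not called.

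Some genes of the nerve sheath, of immune cells and of blood were lower in AN. Of 6 perineurial markers 3 were lower (median −0.76), with and without any 1 replicate. Cldn1, a tight junction protein of the perineurium, measured 10.13, 10.49 and 10.38 in AN and 11.31, 11.86 and 11.39 in EN (−1.19, standard error 0.09, adjusted p = 4.75e-05). Tenm2 (−1.34, standard error 0.10) and the keratin Krt19 (−1.46) were the others, while Itgb4 (0.49) and Slc2a1 (−0.04) were not called. The summed signal of the list, 71457 to 95307 in AN and 62959 to 81757 in EN, did not move with these 3 genes.

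MHC class II genes, which present antigen, were lower in all 7 members at any fold, where 14.2% of all gene names were, and 1 passed 2-fold. H2-Aa measured 8.23, 9.48 and 9.54 in AN and 9.76, 10.84 and 10.59 in EN (−1.31, adjusted p = 0.00815). Cd74, the invariant chain, measured 11.31, 12.21 and 11.83 against 12.19, 13.15 and 12.43 (−0.81, adjusted p = 0.000622). In each pair the AN array was the lower one, although the groups overlapped for Cd74. Macrophage markers were lower in 8 of 13 members at any fold (median −0.48), with none past 2-fold, for example Aif1 (−0.49, adjusted p = 0.0137) and C1qa (−0.48, adjusted p = 0.0289), while Csf1r (−0.41, adjusted p = 0.137) and Cx3cr1 (0.14) were not called. Without replicate 2, H2-Aa was not called, 3 of 7 MHC class II genes and 1 of 13 macrophage markers were lower at any fold, and without replicate 1 the latter count was 2.

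Erythrocyte markers had 3 of 7 members lower (median −0.84), namely Hbb-b2 (−1.27), Hbb-b1 (−1.25) and the haem synthesis enzyme Alas2 (−1.25). The globin probes can share signal between these near-identical genes. Hbb-b2 measured 14.35, 14.23 and 14.20 in AN and 15.33, 15.65 and 15.60 in EN (adjusted p = 0.0007). Sterol synthesis genes were lower in 11 of 20 at any fold, where 14.2% of all gene names were, and in none past 2-fold (median −0.34). Without replicate 2, 2 of 20 were lower at any fold. Endothelial, fibroblast, meningeal, growth factor, interferon and cell cycle lists had no member past 2-fold, with medians of −0.16, −0.15, −0.30, −0.21, −0.17 and 0.14. Adipocyte and lymphocyte lists had 1 lower member each, Fabp4 and the T cell receptor chain Cd3g (−1.70), which was not called without replicate 1 or without replicate 2.

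The genes that the study named from its arrays were also looked up, a list chosen on these samples and so no independent evidence of direction. Of 19 tested, 9 were higher in AN, among them Npy, Gabrb1, Gabra3, Nrxn2, Nrxn3, Nlgn1, Ncam1 and Unc13c, and none was lower. Of these 9, the difference was largest in pair 2 for all. Without replicate 1, 6 of the 19 were called, and without replicate 2, 5 were.

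The comparison at 5 W was last set against earlier ages in the same fit, since roots of 1 W and 3 W were measured on other animals. Changes are counted by sign, so that a fall of AN minus EN can also mean that the roots moved further apart. From 3 W to 5 W, AN minus EN fell at 1 of 33279 probes (0.003%). This was the probe of the linker histone gene Hist1h1c, which went from 0.45 to −0.58 (adjusted p = 0.0315). It did not pass once any 1 replicate was left out. AN minus EN rose at no probe (0.0%). Before adjustment of p, 266 probes passed the same limits. From 1 W to 5 W, AN minus EN rose at 409 probes (1.23%) and fell at 204 (0.613%). With no replicate block, 59 probes changed, and 182 without replicate 2. Of the 1042 probes higher in AN at 5 W, 659 were also called higher at 3 W, 417 at 1 W and 14 at P0. Over all 33279 probes, the same fit called 933 higher in AN at 3 W, 884 at 1 W and 37 at P0.

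Peptide and glial genes were among those that had a larger difference at 5 W than at 1 W. Penk (proenkephalin) measured 11.75, 13.56 and 10.37 in AN and 8.29, 9.53 and 8.79 in EN at 5 W, where the difference was 3.02 against −0.26 at 1 W (adjusted p of the change = 0.0129). Sst went from 0.49 to 3.39 (adjusted p = 0.0462) and Grp from −0.88 to 1.70 (adjusted p = 0.0203). Crh, the gene of corticotropin-releasing hormone, differed by 0.19 at 1 W. At 5 W, where no EN array was above background, AN was at least 1.74-fold higher. Klk6 went from −1.07 to 2.62 (adjusted p = 0.0142). Ncam1 (0.89 to 2.12, adjusted p = 0.00221), Kcna6 (0.81 to 2.15, adjusted p = 0.00176) and Epha5 (0.39 to 1.92, adjusted p = 0.00176) increased from positive values at 1 W. By contrast, Tac1 (5.09 at 1 W, 3.20 at 5 W, adjusted p of the change = 0.375) and Sytl3 (3.37 at 1 W, 3.66 at 5 W, adjusted p = 0.662) did not pass.

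A few genes turned over. Chosen after their values were seen, Sybu, a syntaxin-binding linker to kinesin, went from 3.15 at 1 W to −1.18 at 5 W (adjusted p of the change = 0.00652). Likewise Zdhhc2, a palmitoyltransferase, went from 2.28 to −1.57 (adjusted p = 0.00859) and Lpar3, a lysophosphatidic acid receptor, from 2.13 to −1.48 (adjusted p = 0.0179). Fgl2 (−0.75 to −2.54, adjusted p = 0.00176), Copg2os2 (0.17 to −2.69, adjusted p = 0.00176) and Cyp2j13 (−0.18 to −2.49, adjusted p = 0.0398) had a lower AN-EN difference at 5 W than at 1 W, and Uts2 (−3.68 at 1 W and −5.20 at 5 W, adjusted p = 0.324) did not pass.

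**Figure D5:**
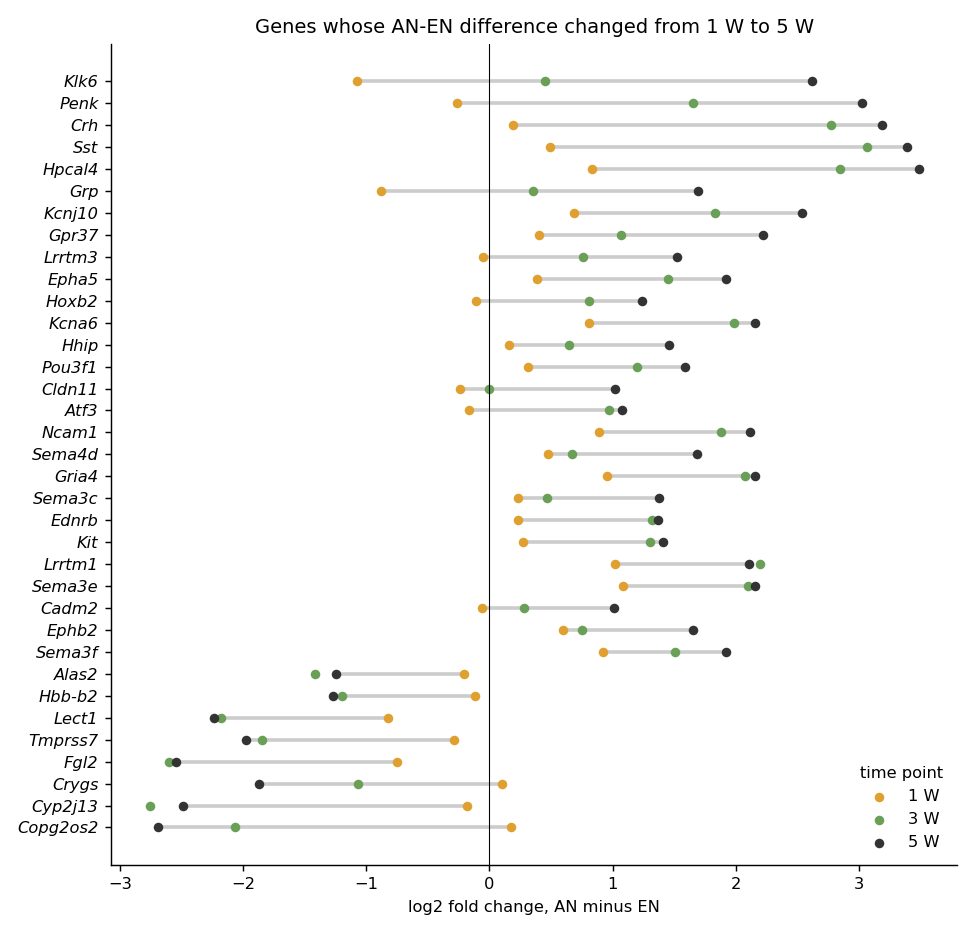
Log2 fold change (AN minus EN) at 1 W (yellow), 3 W (green) and 5 W (black) of the named genes whose difference changed from 1 W to 5 W at an adjusted p below 0.05 and by more than 2-fold. The genes are those of the naming rule, without Sybu, Zdhhc2 and Lpar3, and among them Klk6 runs furthest up, from −1.07 to 2.62, and Copg2os2 furthest down, from 0.17 to −2.69.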

How the data were processed

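RNA of AN and EN at 4 ages was measured on 24 1-colour arrays, grouped by the fibre and age on the labels. The authors deposited scanner intensity values from Agilent Feature Extraction 10.7.1.1, used here for gene names and detection marks. They also deposited a log2 table, quantile normalized in GeneSpring according to the methods, which gave all signals. Quantile normalization makes the distributions alike, so differences are relative to the other genes. Gene names are those of the array design.

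All 24 arrays were fitted in limma 3.58.1 (R 4.3.3) with a term per group and per pair of same-numbered AN and EN arrays (8 residual degrees of freedom), and p-values were adjusted by Benjamini-Hochberg over 33279 probes. The pairing was checked: deviations of same-numbered arrays correlated at 0.474 to 0.618 at 5 W. Code was tested on simulated data. Members and lists were chosen with earlier results of these data known. Named were the 12 largest rises and the 12 largest falls above background on all 6 arrays, the 6 largest bounds, genes named in the study and called list members, some of which are not reported here. Alternatives were background correction, scaling, filter, block, weights, the arrays fitted and each replicate left out. Promoter sequences are RefSeq. The number of arrays limits precision.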

Additional observations from a re-analysis of the deposited data

Results flagged for a closer look

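The AN-EN difference of 35 named genes changed between 1 W and 5 W by the limma contrast of the differences, at an adjusted p below 0.05 and by more than 2-fold. Values are the log2 difference at 5 W minus that at 1 W. It increased by more than 2 log2 units for Klk6 (3.69), Penk (3.29), Crh (3.00), Sst (2.91), Hpcal4 (2.65) and Grp (2.58), of which Klk6 is a protease of oligodendrocytes, Hpcal4 a calcium sensor and the others encode peptides. Crh was above background on no EN array at 5 W, so that its value is not a measured change. Smaller increases were found for Kcnj10 (1.85), Gpr37 (1.82), Lrrtm3 (1.58), Epha5 (1.53), Hoxb2 (1.35), Kcna6 (1.34), Hhip (1.30), Pou3f1 (1.28), Cldn11 (1.26) and Atf3 (1.24), and for Ncam1 (1.23), Sema4d (1.21), Gria4 (1.20), Ednrb (1.14), Sema3c (1.14), Kit (1.13), Lrrtm1 (1.09), Sema3e (1.07), Cadm2 (1.07), Ephb2 (1.06) and Sema3f (1.00). It decreased for Copg2os2 (−2.87), Cyp2j13 (−2.31), Crygs (−1.97), Fgl2 (−1.79), Tmprss7 (−1.69), Lect1 (−1.41), Hbb-b2 (−1.15) and Alas2 (−1.04). With 3 arrays per group, no array was tested as an outlier.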

How the results depend on the processing

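Among the named genes, none that was called changed sign under the alternatives run. Among genes that were not called, Gabrb2 went from 0.50 to −0.09 and Gabra4 from 0.26 to −0.20 without replicate 2, and Gabra5 from 0.06 to −0.03 and Gabrg3 from 0.10 to −0.17 without replicate 3. The 1042 probes higher and 398 lower in AN became 590 and 175 with normexp background correction, 592 higher when only probes above background on all 6 arrays were tested, 390 higher with the 6 arrays at 5 W fitted alone with the replicate block, and 70 and 29 with these arrays and no block. Higher probes made up 72.4% of the calls, which became 77.1% with normexp, 63.7% with probes above background on all 6 arrays and 57.5% with the 6 arrays alone and the block. At the methods' thresholds, normexp gave 686 higher and 186 lower, probes above background on all arrays 683 higher, and no filter on dim probes 906 lower. The count of probes whose difference changed from 1 W to 5 W, 613, became 295 with normexp, 354 with no filter, 59 with no replicate block, 928 without the 3 W arrays, 1057 with array quality weights and 395 with 1 probe per gene. That from 3 W to 5 W, 1, became 2 with no filter and with 75th percentile scaling, and 0 with no block. In the fit of all 24 arrays, the replicate block, which follows the pairs on a slide, changed no other count of probes by over 1.5 times. Among the counts of list members in that fit, 44 were marked as moved without the block and 132 as the same. Without the block, 24 named genes were not called in that fit. With the 6 arrays alone, leaving out the block took the higher probes from 390 to 70 and the lower ones from 288 to 29.

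With 1 replicate left out in turn, 604 to 1086 probes were higher and 266 to 500 lower (1226 to 1503 and 418 to 655 at the methods' thresholds), the share higher was 66.5% to 69.4%, and 182 to 661 probes changed from 1 W and 0 to 0 from 3 W. The lowest counts at 5 W and from 1 W came without replicate 2. Of the 30 genes with the largest changes or bounds, 26 were not called with the 6 arrays alone and no block, and 14 with the block. The cause of these shifts was not tested. Dim signal limits the rest: the lowest log2 signal well above background was 3.92 to 5.62 by array, and below it only bounds can be given.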
